A study of Arabidopsis thaliana with 24 samples.

Results

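Suberin is the polyester of fatty acids, glycerol, fatty alcohols and ferulate that seals the walls of endodermal and peridermal root cells against free passage of water and solutes. In its synthesis, acyl chains are elongated, oxidized at the omega carbon, reduced to alcohols or joined to glycerol, and half-transporters of the ABCG family are thought to move the products across the plasma membrane to the wall. The levels of 10 Arabidopsis genes of this pathway were followed here. They were chosen by locus, as GPAT5 (AT3G11430), CYP86A1 (AT5G58860), CYP86B1 (AT5G23190), KCS2 (AT1G04220), FAR1 (AT5G22500), FAR4 (AT3G44540), FAR5 (AT3G44550), ASFT (AT5G41040), ABCG2 (AT2G37360) and ABCG6 (AT5G13580). Probes of the array were matched to 9 of the 10, among 25410 loci with a matched probe. No probe was matched to FAR4, so it was not analysed here. The 9 genes had 13 probes in all, and each of the 13 was well above background on all 24 arrays, so that all 9 passed the filter on dim probes and stand among the 27814 genes tested.

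The material was Col-0 root tissue of 4 hygromycin-selected transgenic lines, each grown with 5 µM estradiol and without it and hybridized to 3 one-colour arrays per group. Roots were 15 days old, and transfer was made at 8 days. ATHB25/REM7-ind plants (labelled ISH1&2) carry the transcription factors ATHB25, a zinc finger homeodomain protein, and REM7, a B3 domain protein, under estradiol-inducible promoters. ISH1 and ISH2 plants carry a single inducible gene each, which the labels do not name, and for control plants the labels give no construct. In this system the XVE activator is expressed from a constitutive promoter and binds the LexA operator once estradiol is present, and the sources do not say which transformants were arrayed or whether replicates came from separate plates. The p-values therefore measure the spread between these arrays, which may in part be technical. With estradiol, ATHB25 lay at 4.14 to 4.36 in ATHB25/REM7-ind, 5.16 to 5.31 in ISH1, -8.85 to -8.03 in ISH2 (not well above background) and -8.92 to -7.32 in control roots (well above background on 2 of 3 arrays), as log2 level relative to the 75th percentile of the array. REM7 lay at 4.58 to 4.71, -0.19 to 2.59, 6.02 to 6.37 and -1.64 to -1.14 in the same 4 groups. In ATHB25/REM7-ind roots without estradiol REM7 already lay at 4.52 to 4.64, and its response there was 0.10 (log2, adjusted p = 0.848), while ATHB25 rose by 4.89. REM7 was thus high on both sides of the estradiol comparison in this line. ATHB25 was also raised before induction, at -1.18 to -0.14 in ATHB25/REM7-ind roots without estradiol. In control roots without estradiol it lay at -9.05 to -8.78 (not well above background). The title was followed for 2 control arrays whose description field contradicts it (replicate 3 with estradiol and replicate 2 without it). On ISH1 replicate 1 without estradiol 90.9% of probes were well above background, against 76.9% to 84.8% on the other arrays.

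The first comparison asked how the suberin genes responded to estradiol in each line. All 9 measured genes fell in ATHB25/REM7-ind roots, by 0.37 to 2.90 on the log2 scale, with adjusted p (limma, over all genes) between 2.83e-12 and 0.000656. Of the 27814 genes tested, 33% were called lower and 31.6% higher in this comparison, so a call by itself was common. The sizes stood further out, since 7 of the 9 fell at least 2-fold (all but KCS2 and ASFT), against 7.38% of all genes. The median of the 9 log2 differences was -1.74, against -0.01 over all genes. In each of the 9 genes, the 3 arrays of ATHB25/REM7-ind roots with estradiol lay below all other 21 arrays, which held for 15.1% of all genes. The 9 genes were chosen with earlier results of these data known, so these contrasts with all genes are descriptions. Because the roots were measured whole, fewer suberizing cells and less RNA per cell cannot be told apart.

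**Figure D1:**
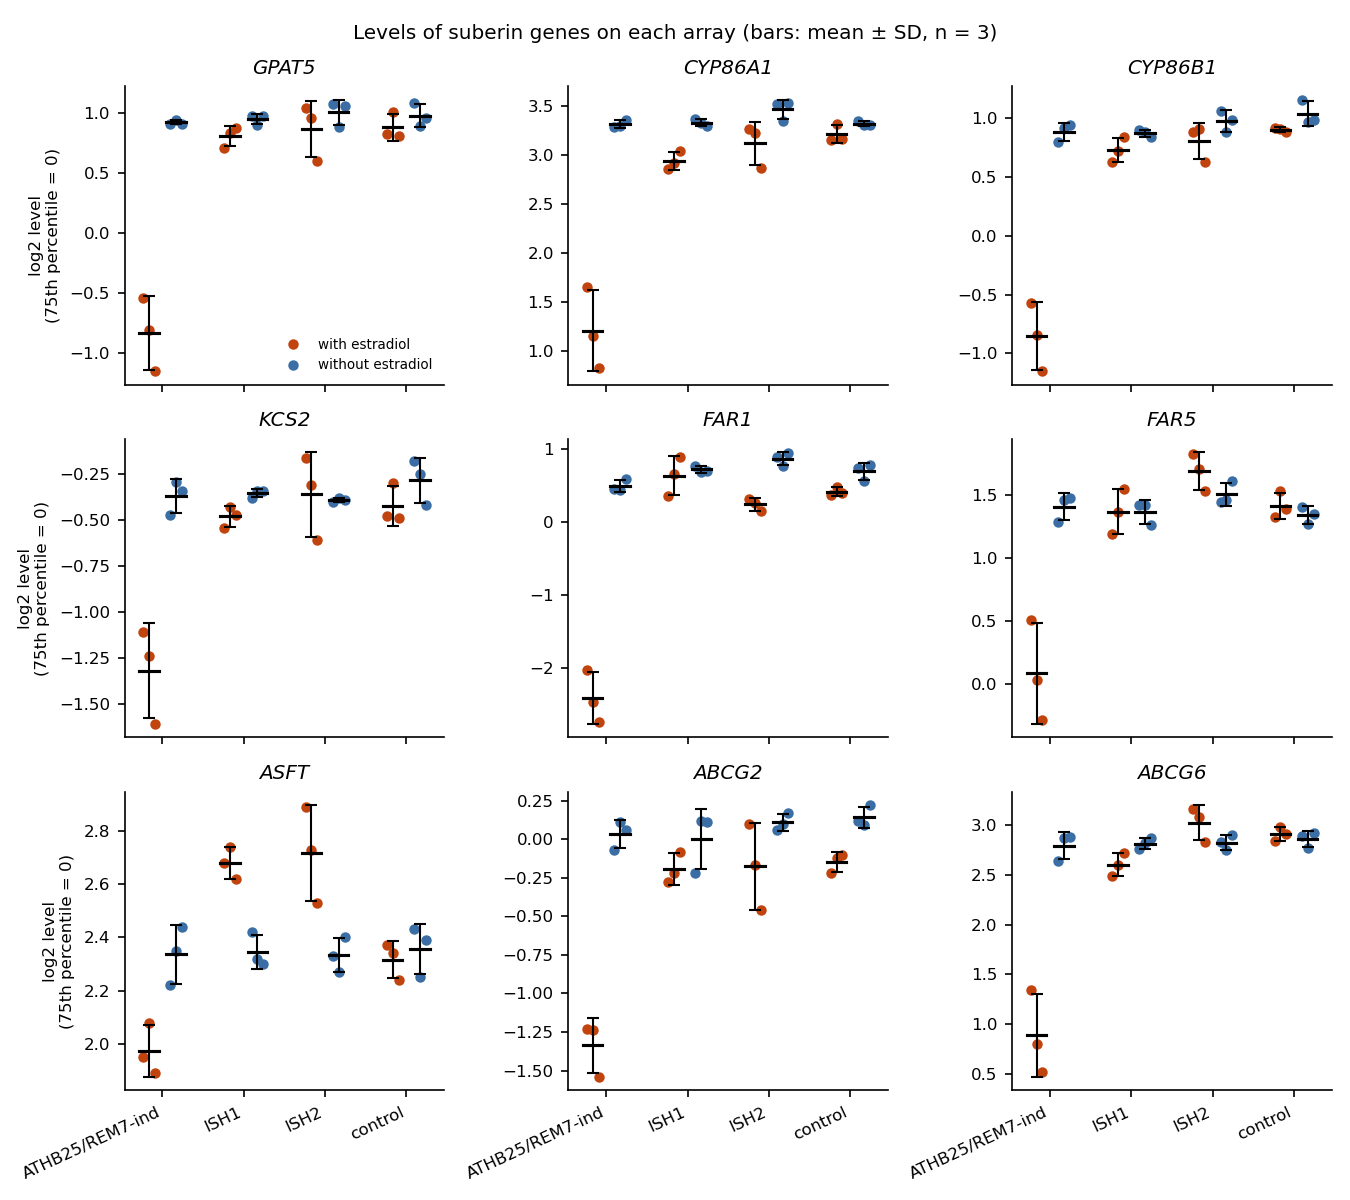
Log2 level of each suberin gene (75th percentile of the array at 0) in 4 lines with estradiol (red) and without it (blue); points are arrays, bars the mean ± SD of 3. In every panel the 3 red points of ATHB25/REM7-ind lie below the other 21 arrays, with a gap of 2.17 for FAR1 and of 0.14 for ASFT. Each panel has its own vertical scale, and levels are not compared between genes.

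Among the enzymes of the acyl chain, GPAT5 transfers acyl groups to glycerol 3-phosphate. Its log2 level was -0.54, -0.81 and -1.15 in ATHB25/REM7-ind roots with estradiol, against 0.91, 0.94 and 0.91 without it. The groups were far apart, with a log2 difference of -1.75 (SE 0.12, adjusted p = 4.77e-10, 3.37-fold lower with estradiol). CYP86A1 is the omega-hydroxylase of long-chain fatty acids in roots. It stood at 1.65, 1.15 and 0.83 with estradiol, against 3.29, 3.30 and 3.36 without it. The 3 arrays without estradiol differed by 0.07 or less, whereas those with estradiol were spread over 0.82, and the difference of -2.11 (SE 0.14, adjusted p = 2.26e-10) was 4.31-fold. CYP86B1, which hydroxylates very-long-chain acids, had levels of -0.57, -0.84 and -1.15 with estradiol, against 0.80, 0.92 and 0.94 without it. It fell by 1.74 (SE 0.11, adjusted p = 9.86e-11), and its arrays kept the order seen in GPAT5 and CYP86A1. KCS2, a ketoacyl-CoA synthase that elongates acyl chains, changed less. It measured -1.11, -1.24 and -1.61 with estradiol, against -0.47, -0.29 and -0.34 without it. The fall of 0.95 (SE 0.11, adjusted p = 5.41e-07) was 1.94-fold, and the groups did not overlap.

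The fatty acyl reductases FAR1, FAR4 and FAR5 make the primary alcohols of suberin, and each prefers a different chain length. FAR1 showed the largest fall of the 9 genes. Its level was -2.02, -2.46 and -2.73 in ATHB25/REM7-ind roots with estradiol, against 0.46, 0.45 and 0.59 without it. This was a log2 difference of -2.90 (SE 0.14, adjusted p = 2.83e-12), a 7.49-fold fall, and 271 genes of all those tested (0.974%) had a lower value. A dimmer FAR1 probe gave -2.53. FAR5 read 0.51, 0.03 and -0.29 with estradiol, against 1.29, 1.46 and 1.48 without it. It fell by 1.33 (SE 0.14, adjusted p = 1.84e-07) and its other probe gave -1.43. FAR4 and FAR5 are neighbors in the reference annotation and paralogs. Whether the FAR5 probes also bind FAR4 transcripts was not tested, so the FAR5 values may hold signal of both.

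ASFT, the feruloyl transferase that adds ferulate to omega-hydroxy acids and alcohols, set itself apart. Its levels were 1.95, 2.08 and 1.89 in ATHB25/REM7-ind roots with estradiol, against 2.22, 2.35 and 2.44 without it. The groups did not overlap, but the fall was only 0.37 (SE 0.081, adjusted p = 0.000656, 1.29-fold), and 22% of all genes had a lower value. In ISH1 roots ASFT read 2.68, 2.74 and 2.62 with estradiol, against 2.42, 2.32 and 2.30 without it. In ISH2 roots it read 2.89, 2.73 and 2.53 with estradiol, against 2.33, 2.27 and 2.40 without it. ASFT thus rose in both lines, by 0.33 (adjusted p = 0.00159) and by 0.38 (adjusted p = 0.000794), and was the one gene of the 9 called higher in either.

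The 2 exporters of the set, ABCG2 and ABCG6, belong with ABCG20 to the transporters required for a normal suberin barrier in roots. ABCG6 had levels of 1.34, 0.80 and 0.52 in ATHB25/REM7-ind roots with estradiol, against 2.64, 2.87 and 2.88 without it. It fell by 1.91 (SE 0.14, adjusted p = 1.18e-09, 3.75-fold). ABCG2 had levels of -1.23, -1.24 and -1.54 with estradiol, against -0.07, 0.11 and 0.06 without it. Its fall of 1.37 (SE 0.12, adjusted p = 9.03e-09) was smaller than that of ABCG6 in value, and the dimmer ABCG2 probe gave -1.44. Both KCS2 probes also gave like values, -0.95 and -0.93. In 8 of the 9 genes replicate 1 was the highest of the 3 ATHB25/REM7-ind arrays with estradiol, ASFT being the exception, and in all 9 replicate 3 was the lowest, with a range of 0.19 to 0.82. The level on these arrays thus varied in a similar way from gene to gene. This order was not particular to ATHB25/REM7-ind roots. Replicate 3 was also lowest for each gene in ISH2 roots with estradiol, as in ABCG6 (3.17, 3.08 and 2.83). In ISH1 roots with estradiol ABCG6 ran the other way (2.49, 2.60 and 2.72).

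In the lines with a single inducible gene, few of the 9 passed the test by their brightest probe, and for ABCG2 the probes disagreed. In ISH1 roots, 1 gene rose (ASFT) and 1 fell, against 26.3% and 36.4% of all genes. The gene that fell was CYP86A1, at 2.86, 2.92 and 3.04 with estradiol, against 3.37, 3.33 and 3.30 without it, a difference of -0.39 (SE 0.14, adjusted p = 0.0206). The call was lost when ISH1 replicate 1 or 2 with estradiol, or replicate 1 without it, was left out (adjusted p = 0.0503 to 0.0659). In ISH2 roots, 1 gene rose (ASFT) and 2 fell, against 27.3% and 21.9% of all genes. FAR1 read 0.32, 0.27 and 0.15 with estradiol, against 0.89, 0.78 and 0.95 without it, without overlap, and fell by 0.63 (SE 0.14, adjusted p = 0.001). CYP86A1 had an adjusted p of 0.0488 there, at a difference of -0.34, and lost the call in 26 of 37 alternatives, 19 of them single omitted arrays. The other 6 genes differed by -0.29 to 0.19 in ISH2 and the other 7 by -0.21 to 0.00 in ISH1, with 95% intervals that reached no further than -0.54 and 0.49.

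In control roots, limma called 0 of the 9 genes with estradiol by their brightest probe, where 7.14% of all genes were called higher and 7.85% lower. The 9 differences ran between -0.29 and 0.07, and at an unadjusted p below 0.05 there was 1 gene, ABCG2. That transporter stood at -0.22, -0.12 and -0.10 with estradiol, against 0.12, 0.09 and 0.22 without it. These groups did not overlap, and the difference of -0.29 had an adjusted p of 0.111. ABCG2 gave the same -0.29 in ISH2 (adjusted p = 0.0528) and -0.20 in ISH1 (adjusted p = 0.16). Its dimmer probe, fitted over all probes, was called lower in both lines, by 0.63 in ISH2 (adjusted p = 0.000149) and by 0.44 in ISH1 (adjusted p = 0.00225), and gave -0.30 in control roots (adjusted p = 0.084). Whether ABCG2 fell in ISH1 and ISH2 thus depends on the probe. FAR1 differed by -0.28 in control roots (95% interval -0.57 to 0.01), and its dimmer probe was called lower there, by 0.44 (adjusted p = 0.0185). The count of 0 in control roots therefore holds for the brightest probe of each gene. The second probes of FAR5 and KCS2 were called in none of the 3 lines, as were the brightest.

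**Figure D2:**
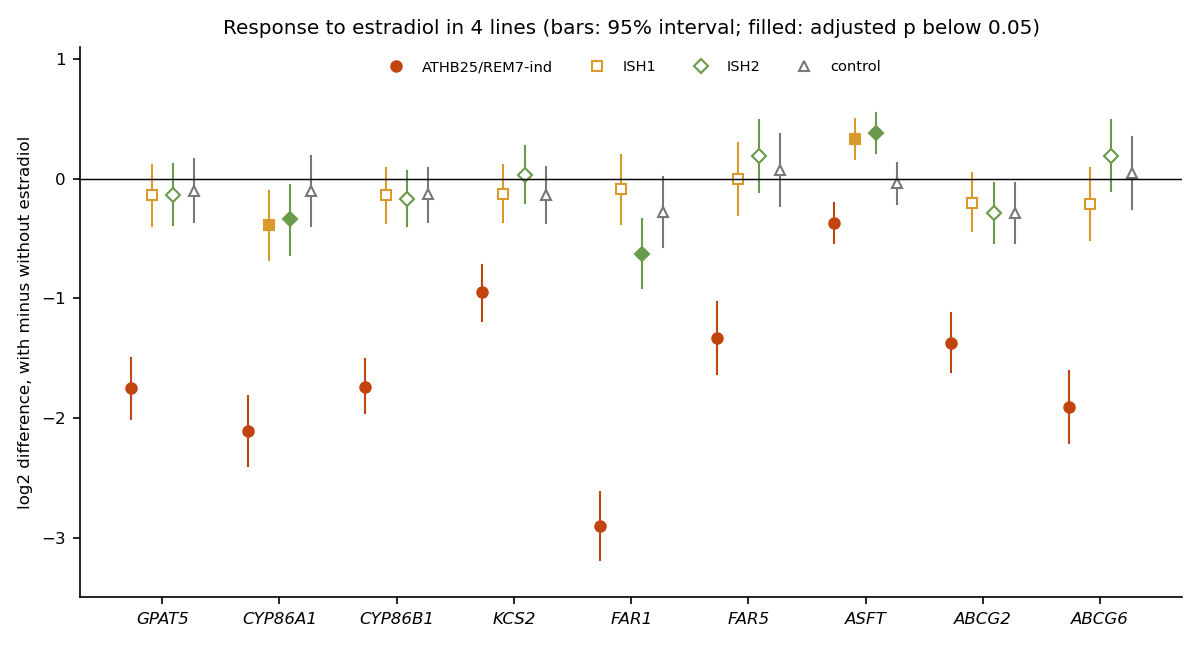
Log2 difference with minus without estradiol for each suberin gene in the 4 lines, with 95% intervals from limma; filled symbols passed an adjusted p below 0.05. All 9 ATHB25/REM7-ind values are negative, from -2.90 for FAR1 to -0.37 for ASFT, while the values of the other lines lie between -0.63 and 0.38.

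The next comparison asked whether the responses themselves differed between lines. The response of ATHB25/REM7-ind plants was lower than that of control plants for all 9 genes (26.8% of all genes were called lower), by 0.32 for ASFT to 2.63 for FAR1. It was also lower than the ISH1 response for all 9 (22.9% of all genes), by 0.70 to 2.82, and lower than the ISH2 response for all 9 (31.4% of all genes), by 0.74 to 2.28. The smallest of these differences was not robust. The adjusted p of ASFT against control plants was 0.0238, and it was 0.0559 to 0.0691 when any of ATHB25/REM7-ind replicate 3 with or without estradiol, control replicate 1 with estradiol or control replicate 2 without it was left out, and 0.053 without both control arrays of contradictory labels. ISH1 and ISH2 responses differed from that of control plants for 1 gene each, ASFT, higher by 0.37 (adjusted p = 0.0115) and by 0.42 (adjusted p = 0.0126). Of all genes, 20.4% were called higher and 27.8% lower in ISH1 and 10.1% and 11.1% in ISH2, while limma called 0 of the 9 suberin genes lower in either, also at an unadjusted p below 0.05. CYP86A1 in ISH1 (-0.29) and FAR1 in ISH2 (-0.35) thus had no called difference from control plants although each fell with estradiol in its own line. These comparisons share the ATHB25/REM7-ind arrays or the control arrays.

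The response of ATHB25/REM7-ind plants was further set against the sum of the ISH1 and ISH2 responses, corrected for that of control plants. All 9 genes were lower than this sum, by 0.99 to 2.47 (largest adjusted p = 0.0014), where 21.8% of all genes were called lower. ASFT was 1.12 below the sum (SE 0.16, adjusted p = 1.75e-05), with single responses upward and the joint one downward. FAR1 was 2.47 below it (SE 0.27, adjusted p = 7.5e-07) and KCS2 0.99 (SE 0.22, adjusted p = 0.0014). The dimmer ABCG2 probe gave -0.66 against the sum (adjusted p = 0.0247), where the brightest gave -1.18. REM7 was not called in the ATHB25/REM7-ind response, and in ISH1 roots it rose with estradiol by 2.67 (adjusted p = 1.71e-05), as it did in ISH2 roots by 6.11. The sum is therefore that of 2 measured responses and not of separate inductions of ATHB25 and REM7.

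The 4 lines of one treatment and replicate number shared a slide, so estradiol was compared across slides, and a line can be set against the control array beside it. On the 3 slides with estradiol, ATHB25/REM7-ind minus control was negative for every gene, between -3.13 and -2.39 for FAR1, -2.34 and -1.52 for CYP86A1, -2.39 and -1.49 for ABCG6, and -0.42 and -0.25 for ASFT. On the slides without estradiol the same differences were -0.28 to -0.12 for FAR1, -0.06 to 0.04 for CYP86A1, -0.25 to 0.10 for ABCG6 and -0.21 to 0.11 for ASFT. The ranges with and without estradiol overlapped in none of these 4 genes. Since a line always took the same position, its level at 1 treatment cannot be told apart from that of the position.

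**Figure D3:**
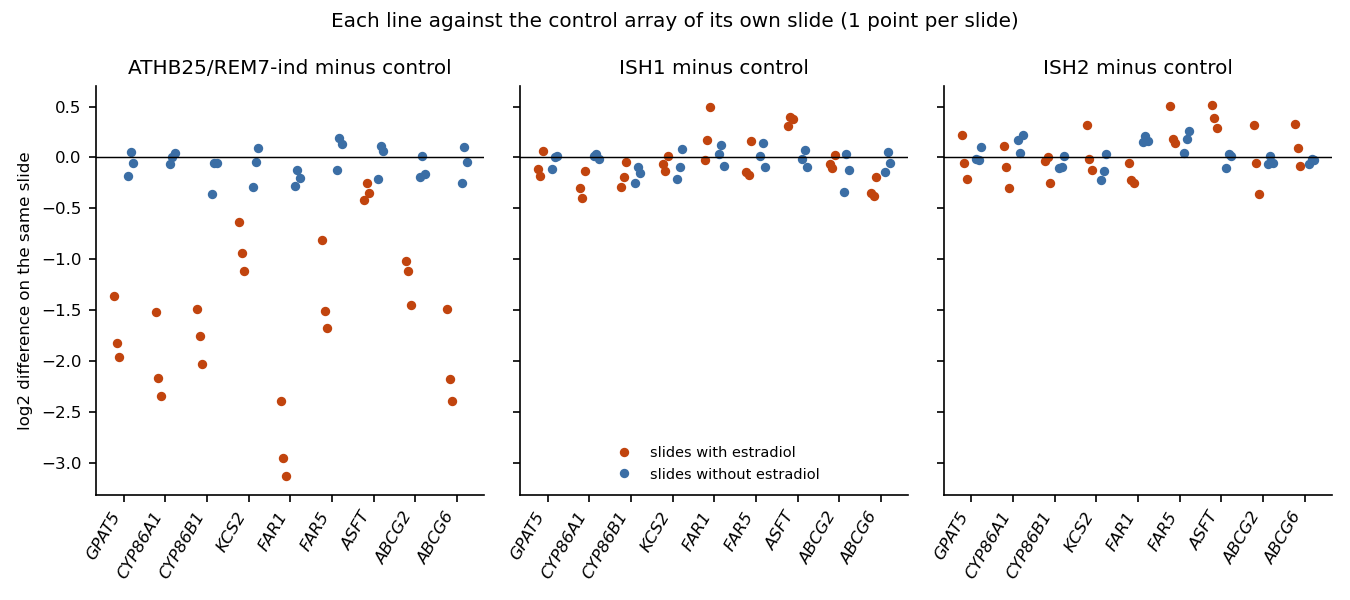
Log2 difference between a line and the control array of the same slide for each suberin gene, on slides with estradiol (red) and without it (blue), 1 point per slide. For ATHB25/REM7-ind all red points lie below 0, down to -3.13 for FAR1, and the blue points lie between -0.36 and 0.19.

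Without estradiol, limma called 0 of the 9 genes against control plants in ATHB25/REM7-ind, ISH1 or ISH2, where 9.62%, 0.766% and 0.651% of all genes were called, and 0 of the 9 also at an unadjusted p below 0.05. The differences were -0.20 to 0.07 in ATHB25/REM7-ind roots, with 95% intervals from -0.49 to 0.37, although ATHB25 and REM7 were already raised there. In ISH1 and ISH2 the intervals spanned -0.39 to 0.32 and -0.34 to 0.46. Ordered by group mean, the ATHB25/REM7-ind group with estradiol was lowest for each of the 9 genes, and its range met that of no other group. Among the other 7 groups, neighbors in the order had overlapping ranges except at 2 places. ASFT in ISH1 with estradiol lay above the next group, control without estradiol, and FAR1 in ISH2 with estradiol lay below control with estradiol.

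Over the 8 group means, the profile of each gene was set against the mean of the other 8 after scaling. Pearson's r was 0.962 to 0.995 for 8 of the 9 genes and 0.653 for ASFT. These are descriptions over groups that share arrays, slides and a large change in 1 group. The 5 other genes whose group means were most like the mean profile of the 9 had r of 0.9968 to 0.9983. ABCG10 (AT1G53270), a further ABCG transporter, and AT4G36610, for which the reference gives no symbol, fell by 1.63 and 1.72 in ATHB25/REM7-ind roots with estradiol. The others (AT3G08780, AT3G62810 and FLDH, AT4G33360) owed their likeness to 1 array. On ATHB25/REM7-ind replicate 1 with estradiol their probes were not well above background, near -10.96 on the log2 scale, and they were well above it on all the others.

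Other genes of the suberin pathway, taken from a list of 10 loci, mostly fell too. Of the 10, 8 fell in ATHB25/REM7-ind roots with estradiol and 1 rose, with a median of -1.62, where 33% of all genes were called lower and 31.6% higher. FACT, which makes alkyl caffeates, fell by 2.68, GPAT7, a close relative of GPAT5, by 2.31, and GELP51, a GDSL-type lipase, by 2.26. ABCG1, another suberin transporter, rose by 0.80, and KCS20, a paralog of KCS2, differed by 0.03 and did not pass. ABCG20, the transporter closest in role to ABCG2 and ABCG6, fell by 1.80. In ISH1 roots limma called 2 of the 10 higher and 2 lower, where 26.3% and 36.4% of all genes were called, and in ISH2 roots 3 higher and 1 lower, where 27.3% and 21.9% were, so that these counts were near or below the shares of all genes.

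Transcription factors known to act on suberin genes moved in both directions. Of 13, 11 fell in ATHB25/REM7-ind roots and 2 rose (33% and 31.6% of all genes), with a median of -0.86. MYB9, MYB93 and MYB53, activators of suberin genes, fell by 2.26, 2.07 and 2.03. MYB102 and MYB74, MYB factors that also respond to water stress, rose by 4.72 and 2.41. Both rose as well in ISH1 roots (by 4.20 and 2.07) and in control roots (by 0.92 and 0.51). MYB93 also fell in ISH1 and ISH2, by 0.52 and 0.53. The response of ATHB25/REM7-ind minus that of control plants was called lower for 10 of the 13 factors and for 26.8% of all genes.

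Cutin and cuticular wax, the lipid polymers and coatings of the shoot surface, draw on related enzymes and on the same acyl chains. The counts of these lists stand beside 31.6% of all genes called higher and 33% called lower. Of 14 wax genes, 13 were tested, and 9 rose and 2 fell in ATHB25/REM7-ind roots with estradiol, with a median of 2.61. CER2, CER1 and CER6, of very-long-chain elongation and alkane formation, rose by 5.08, 4.89 and 4.24, whereas CER4, an alcohol-forming reductase of the FAR family, fell by 0.89. The mean log2 level over the 13 wax genes was -0.32 to -0.16 with estradiol, against -2.42 to -2.38 without it. In ISH1 roots this mean was also higher with estradiol, at -1.78 to -1.71 against -2.51 to -2.09. In ISH2 roots it was -2.43 to -2.33 against -2.59 to -2.45, and in control roots the ranges overlapped. Of 20 cutin genes, 19 were tested, and 9 rose and 9 fell in ATHB25/REM7-ind roots with estradiol, with a median of 0.33. The transporters ABCG13 and ABCG11 rose by 4.12 and 4.05. CYP86A4 and CYP86A2, relatives of CYP86A1, fell by 1.95 and 1.20, and GPAT6, a relative of GPAT5, fell by 1.51. A list of 7 genes for the elongase core and acyl activation had a median of -0.05 with 2 higher and 2 lower, shares near those of all genes. One of the lower calls, KCR1, a ketoacyl-CoA reductase of the elongase, differed by -0.11 (adjusted p = 0.0446) and lost the call in 19 of 37 alternatives. LACS1, an acyl-CoA synthetase of wax and cutin synthesis, rose by 2.34. LACS2, of cutin synthesis and also counted in the cutin list, fell by 1.07.

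**Figure D4:**
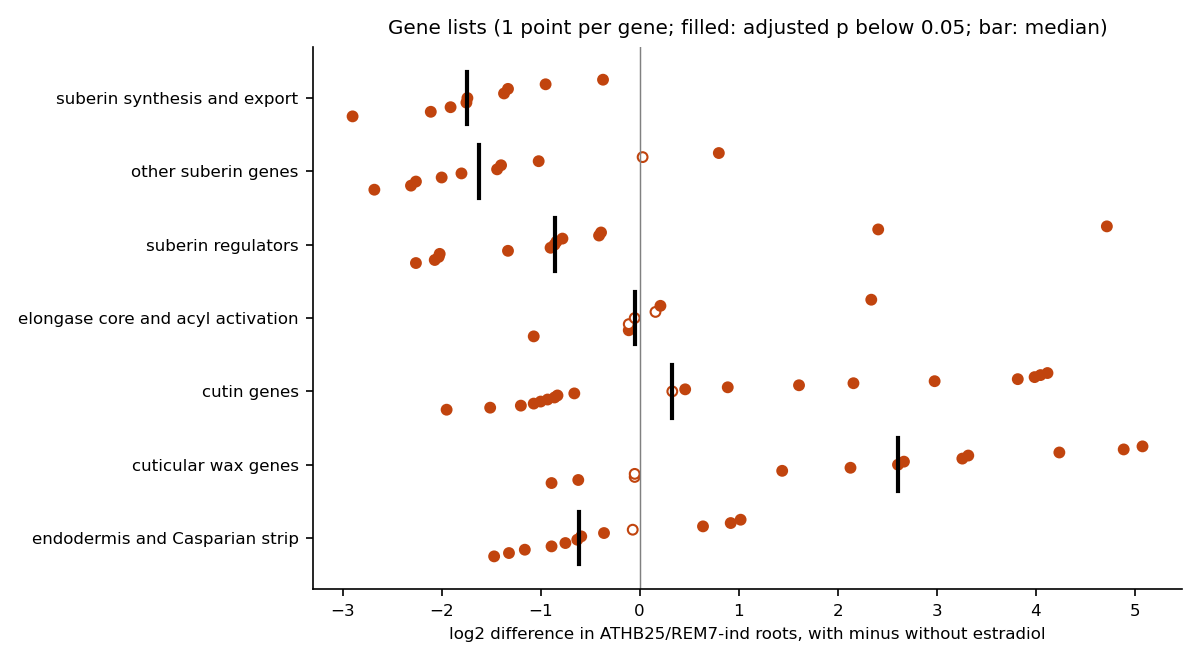
Log2 difference in ATHB25/REM7-ind roots, with minus without estradiol, for the tested genes of each list; filled points passed an adjusted p below 0.05 and bars mark medians. The suberin genes (median -1.74) and other suberin genes (median -1.62) lie mostly left of 0 and the wax genes (median 2.61) mostly right of it.

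Markers of the cells that make suberin were measured beside these genes. Of 12 genes of the endodermis and Casparian strip, the lignin ring of that layer, 8 fell and 3 rose in ATHB25/REM7-ind roots (33% and 31.6% of all genes), with a median of -0.61. CASP2 and CASP1, which scaffold the strip, fell by 1.47 and 1.16, and SCL23, CASP5 and SCR rose by 1.02, 0.92 and 0.64. In ISH1 roots 8 of the 12 also fell (36.4% of all genes), with a median of -0.43, where the median of the 9 suberin genes was -0.14. The mean log2 level over the 12 markers was 0.64 to 0.85 in ATHB25/REM7-ind roots with estradiol, against 1.05 to 1.24 without it. In ISH1 roots it was 0.53 to 0.75 with estradiol, against 0.97 to 1.08 without it. This marker mean was also lower with estradiol in ISH2 roots, at 0.74 to 0.94 against 0.95 to 1.11. The same held in control roots, at 0.82 to 0.85 against 0.87 to 1.07. Over the 9 suberin genes the same mean was -0.58 to 0.00 in ATHB25/REM7-ind roots with estradiol, against 1.23 to 1.37 without it, and 1.12 to 1.33 in ISH1 roots with estradiol, against 1.33 to 1.35 without it. The part of the endodermal markers in the suberin result was not tested. The 5 xylem markers all fell, by 0.45 to 0.60, and the 5 green tissue markers all rose, by 1.23 to 1.88, in ATHB25/REM7-ind roots. The mean log2 level over the xylem markers was 0.37 to 0.61 there with estradiol, against 0.93 to 1.13 without it. It was lower with estradiol in ISH1 roots too, at 0.71 to 0.86 against 1.11 to 1.16. In control roots it was 0.75 to 0.89 against 0.96 to 1.04, and in ISH2 roots the ranges overlapped. In ISH2 roots all 5 green tissue markers fell (21.9% of all genes), with a median of -2.03. The part of these tissues was not tested either.

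Further lists gave mixed values in ATHB25/REM7-ind roots with estradiol, where 31.6% of all genes were called higher and 33% lower. Of 4 root hair markers 3 rose, EXPA7 by 0.62. The call of RHD6 (0.23, adjusted p = 0.0369) was lost with only the arrays compared (adjusted p = 0.108), and without ATHB25/REM7-ind replicate 3 with estradiol (0.199) or replicate 2 or 3 without it (0.172 and 0.0794). Of 3 phloem markers 2 rose and 1 fell. SUC2 rose by 1.83 and SEOR1 fell by 0.75. Of 4 shoot epidermis markers 2 rose and 1 fell. FDH, a ketoacyl-CoA synthase of the shoot surface, rose by 2.63 and PDF1 fell by 2.56. Abscisic acid raises suberin in roots, and of 10 genes that respond to it 5 rose and 1 fell. COR15A and RD29A rose by 6.15 and 3.33, and RAB18 fell by 1.15.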

How the data were processed

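Per the file headers, the authors' intensity values (the processed signal) came from Agilent Feature Extraction 10.7.3.1, which subtracts background and does not normalize between arrays. Their log2 values, deposited beside these, are shifted to the 75th percentile of each array and centred per probe on the median. The median signal and background intensity, also deposited, served one alternative. From the deposited intensity, control spots and 346 marked spots were dropped (238 probe values missing, 0 saturated spots), replicate spots were averaged, and each array was scaled to its 75th percentile (4577 to 6427) before log2. By accession or locus name, 34348 of 43603 probes had a locus (TAIR10.1 table of RefSeq). The 36571 probes well above background on all 3 arrays of a group were kept, and the brightest stood for its gene.

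All 24 arrays in 8 groups were fitted with limma 3.58.1 in R 4.3.3 without a block, two-sided, with Benjamini-Hochberg adjustment over 27814 genes and a threshold of 0.05. The code of the fit was checked on simulated data with independent noise and no slide effects, which does not test the shared slides. Replicate numbers were not used to pair the samples. Alternatives are given in the closing section. The precision is limited by the 3 arrays of a group. All members were named in every comparison, and at most 3 called genes per direction of each other list, of which one marker gene is not reported here. Motifs and sequences were not analysed here. The members and lists were chosen with earlier results of these data known.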

Additional observations from a re-analysis of the deposited data

Results flagged for a closer look

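The responses to estradiol differed between lines for each gene. The values that passed the test (limma, adjusted p below 0.05) are given per gene as log2 differences, for the response of ATHB25/REM7-ind plants minus that of ISH1, of ISH2 and of control plants, and minus the sum of the single responses. For GPAT5, the acyltransferase, they were -1.61 against ISH1, -1.62 against ISH2, -1.65 against control and -1.57 against the sum. For CYP86A1, the long-chain hydroxylase, they were -1.72 against ISH1, -1.77 against ISH2, -2.00 against control and -1.48 against the sum. For CYP86B1, the very-long-chain hydroxylase, they were -1.59 against ISH1, -1.57 against ISH2, -1.60 against control and -1.56 against the sum. For KCS2, the elongase, they were -0.82 against ISH1, -0.98 against ISH2, -0.81 against control and -0.99 against the sum. For FAR1, a reductase, they were -2.82 against ISH1, -2.28 against ISH2, -2.63 against control and -2.47 against the sum. For FAR5, a further reductase, they were -1.33 against ISH1, -1.51 against ISH2, -1.40 against control and -1.45 against the sum. For ABCG2, an exporter, they were -1.18 against ISH1, -1.08 against ISH2, -1.08 against control and -1.18 against the sum. For ABCG6, a further exporter, they were -1.70 against ISH1, -2.10 against ISH2, -1.96 against control and -1.84 against the sum. For ASFT, the feruloyl transferase, they were -0.70 against ISH1, -0.74 against ISH2, -0.32 against control and -1.12 against the sum. Its response was also higher than that of control plants in ISH1, by 0.37, and in ISH2, by 0.42. All 9 genes were lower in ATHB25/REM7-ind in each of the 4 differences, and lay below the control array of the slide on 3 of 3 slides with estradiol.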

How the results depend on the processing

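The count of 9 genes called lower in ATHB25/REM7-ind roots with estradiol was 7 with a 2-fold minimum and 9 under the other alternatives, single omitted arrays included. Over all single-gene values of the 9, 4309 of 4374 kept their side of the threshold, 49 lost the call and 16 gained it. Among called values 0 reversed direction. Values that were not called could change sign, as FAR1 did in ISH1 (-0.22 to 0.05 over the settings). Of 1883 values of the other list genes taken by the naming rule, 37 lost the call, 19 of them of KCR1 (13 by a single omitted array) and 5 of RHD6, while 13 further genes lost it with a 2-fold minimum alone. With a 2-fold minimum, the responses of ISH1 and ISH2 plants had 0 genes higher and 0 lower, and 0 were higher than in control plants. In ISH2 roots 1 gene was called lower, not 2, with quantile normalization, with no filter on dim probes, with only the arrays compared, and without the 2 control arrays of contradictory labels. In ISH1 roots 2 were lower, not 1, with normexp background and with the mean over probes, ABCG2 being added. In control roots these 2 settings and the fit of the compared arrays alone gave 1 lower, ABCG2. With only the arrays compared, 2 responses were lower than control in ISH1 (CYP86A1 and ABCG6) and 1 in ISH2 (FAR1). The causes of these changes were not tested. With 1 array omitted, 0 to 1 genes were lower in ISH1, 1 to 3 in ISH2, and 8 to 9 in ATHB25/REM7-ind against control. The replicate block gave 9 genes lower in ATHB25/REM7-ind and changed no call of the 9 genes. Deviations of same-numbered arrays with and without estradiol correlated by -0.0352 to 0.101, with 1 of 12 pairs over 0.1. The numbers were therefore not used to pair the samples in the main fit. With the slide as a random block, the correlation within slides was 0.0928.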
